A study of Carthamus tinctorius with 15 samples.

Results

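The genes described here were abundant in both stem and leaf of safflower (Carthamus tinctorius) and scarce in both root and flower. Safflower is an oil crop of the daisy family that is grown for its seeds and its coloured florets. Expression was measured by RNA-seq in 4 tissues, with 3 libraries each from stem, leaf, root and flower. The labels give a tissue and a replicate number for each library, and no genotype, treatment, age or growth stage beyond that; the seed libraries were not analysed here. Nothing states whether the 3 libraries of one tissue derive from different plants, so p-values reflect library-to-library spread alone and that spread may be technical.

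Each level is an FPKM value, the reads of a gene divided by its length and by the library total, so levels can be set side by side between genes. The tissue level used for the choice was the mean over 3 libraries of log2(FPKM + 1). A gene was a member when the lower of its stem and leaf means exceeded the higher of its root and flower means by at least 2, a distance called the gap below, and when its stem and leaf means differed by less than 2. Of 33242 genes listed, 281 met this rule, or 0.845%. FPKM does not remove shifts of scale between tissues. Median-ratio scaling divides each library by its median ratio to the gene averages. These factors were 0.715 to 0.758 in flower, 1.019 to 1.025 in leaf, 1.181 to 1.182 in stem and 1.233 to 1.252 in root. With that scaling 220 of the 281 met the rule again. All 281 also passed the filter on low values that kept 20769 genes for testing, at least 1 FPKM in at least 3 libraries, but members pass it through the tissues in which they were chosen to be high. All 281 were also called by limma in each of the 4 pairs of a shoot tissue with root or flower, at a difference of 2 or more, beside 1.9% of tested genes, and nothing is read from that count since the rule used those pairs. The gap is likewise a description of how the members were picked and carries no test. The rows carry no gene identifier, so a gene is named by its row, counted from 1, and by the length in bases recovered from its values. No marker of a tissue could be looked up for the same reason.

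Stem and leaf are the green organs of the shoot. Their cells carry chloroplasts, they share a continuous vascular system and an outer epidermis with a waxy cuticle, and the leaf arises from the same meristem that builds the stem. Roots lack most green tissue and take up water and minerals, whereas the florets of a flower head are mostly coloured petals and reproductive organs. Which of these functions the members serve cannot be read from the table, and no function is given to any row below. In tissue samples of this kind, fewer cells of a type and less RNA per cell cannot be told apart.

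Library totals recovered from the FPKM steps ran from 28391416 to 30563169 reads in stem, 30929338 to 31500664 in leaf, 26183138 to 29184532 in root and 29363997 to 30488919 in flower. Libraries of a tissue lay close together. The median gene had an SD over libraries of 0.088 in stem, 0.088 in leaf, 0.089 in root and 0.142 in flower on the log2(FPKM + 1) scale. Flower replicate 1 stood apart from the other flower libraries and held the highest flower value of 46.8% of the tested genes with flower reads.

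The members formed a small but heavily expressed set in the shoot. Together they held 4.66%, 4.59% and 4.65% of all FPKM in the 3 stem libraries and 10.55%, 10.5% and 10.55% in the 3 leaf libraries. The same genes held 0.159%, 0.16% and 0.172% in root and 0.247%, 0.282% and 0.281% in flower. The libraries of each tissue agreed closely in this share, and leaf devoted a larger part of its expression to these genes than stem did. The 10 highest members made up 30.4% of the set's FPKM in stem and 35.0% in leaf.

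Levels within the set varied widely. For the median member the level was 31.3 FPKM in stem, 63.8 in leaf, 1.10 in root and 0.944 in flower, while the median tested gene stood at 12.1, 11.1, 11.9 and 6.95 FPKM in the same tissues. In stem the members ran from 3.40 to 2177 FPKM, and in leaf from 3.64 to 4051 FPKM. At 100 FPKM or more there were 69 members in stem and 112 in leaf, and at 1000 FPKM or more there were 2 in stem and 26 in leaf. A further 41 members in stem and 22 in leaf were below 10 FPKM.

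**Figure D1:**
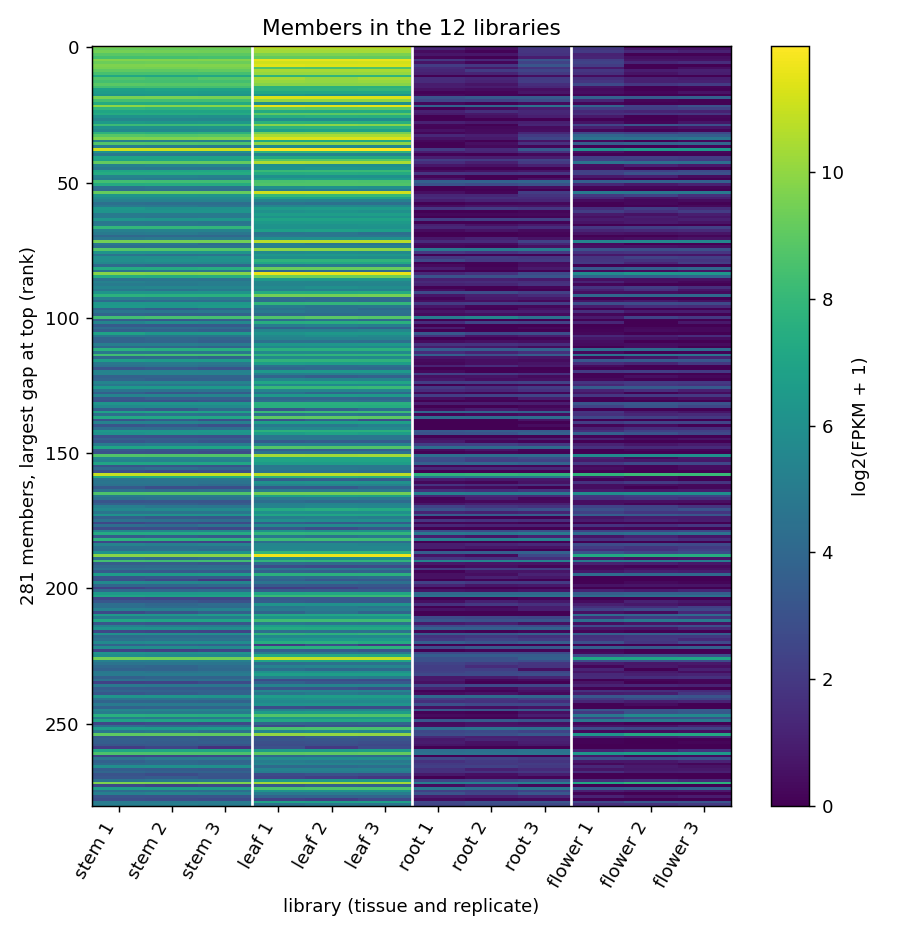
Level of each of the 281 members (rows, largest gap at the top) in the 12 libraries (columns), as log2(FPKM + 1) by colour. Within each row the stem and leaf columns are brighter than the root and flower columns. Weakly expressed members are dim in stem and leaf too, and some members keep a visible level in flower or in root.

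Most members cleared the threshold by a modest margin. The gap had a median of 2.94, with 144 members between 2 and 3, 102 between 3 and 5, and 35 at 5 or more. The lowest stem or leaf library was above the highest root or flower library in all 281 members, which the rule all but fixes. That distance between single libraries was smallest in row 5252, at 1.32, and reached 2 in 231 members. The members nearest the threshold were row 30347 (1172 bases), with a gap of 2.003, and row 11294 (1332 bases), with 2.001. The rows just outside it were row 2665 (1863 bases), with a gap of 1.996, and row 25048 (1634 bases), with 1.992. These 4 genes differ little in gap, so the edge of the set is a convention. A further 113 genes had a gap of at least 2 and were left out because stem and leaf differed by 2 or more, and 106 of them were higher in leaf.

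The gap was also read in libraries that had no part in the choice, which speaks only to repeatability between libraries. Members were picked anew from 2 replicate numbers and their gap was read in the libraries of the third. With replicate 1 held out 278 genes were chosen and 254 of them (91.4%) reached a gap of 2 in replicate 1. With replicate 2 held out 251 of 279 (90.0%) did so, and with replicate 3 held out 249 of 286 (87.1%). The median gap was 2.96, 2.93 and 2.84 in the held-out libraries against 2.92, 2.90 and 2.89 in the libraries used to choose. The smallest held-out gap was 0.819, so every chosen gene stayed higher in the held-out stem and leaf libraries than in those of root and flower. Libraries of a tissue lay close together and may be technical repeats, so this outcome was nearly built in. It is no independent support for membership.

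The members with the largest gaps were strongly expressed in the shoot and at a few FPKM or less elsewhere. Row 3151 (1233 bases) stood at 836, 820.5 and 837 FPKM in stem and at 2580.0, 2548 and 2546 FPKM in leaf. In root it was at 1.11, 0.682 and 4.20 FPKM, and in flower at 3.86, 0 and 0.133 FPKM. Its gap of 8.30 was the largest of the set, and root replicate 3 and flower replicate 1 were each above the other libraries of their tissue.

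Row 23237 (1128 bases) was at 597, 593 and 594 FPKM in stem and 1429, 1414 and 1437 in leaf, against 1.43, 0.474 and 2.64 in root and 2.65, 0.694 and 0.582 in flower. Row 32266 (1032 bases) was at 709, 695 and 682 FPKM in stem and 1304, 1285 and 1320.0 in leaf, against 0.314, 0.0740 and 2.66 in root and 3.09, 1.58 and 1.18 in flower. The stem and leaf libraries of these genes were nearly level within each tissue, while those of root and flower differed several times over at traces of a few FPKM or less.

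Row 4847 (973 bases) was at 493, 508 and 506 FPKM in stem and 788, 796 and 775 in leaf, against 0.628, 0.667 and 2.43 in root and 1.25, 0 and 0.0337 in flower. Row 12715 (2056 bases) was at 355, 351 and 358 FPKM in stem and 546, 547 and 554 in leaf, against 0.122, 0.0186 and 0.917 in root and 1.36, 0.348 and 0.367 in flower. Row 17449 (696 bases) was at 865, 844 and 860.4 FPKM in stem and 2978, 2973 and 3058 in leaf, against 2.79, 1.65 and 7.24 in root and 3.64, 0.587 and 0.518 in flower. In all 6 of these genes root replicate 3 was the highest root library and flower replicate 1 the highest flower library. Without root replicate 3 the root mean was 0.895 FPKM for row 3151, against 1.995 with it, and 0.194 for row 32266, against 1.01 with it. Without flower replicate 1 the flower mean was 0.0665 FPKM for row 3151, against 1.33 with it, and 0.0169 for row 4847, against 0.428 with it.

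**Figure D2:**
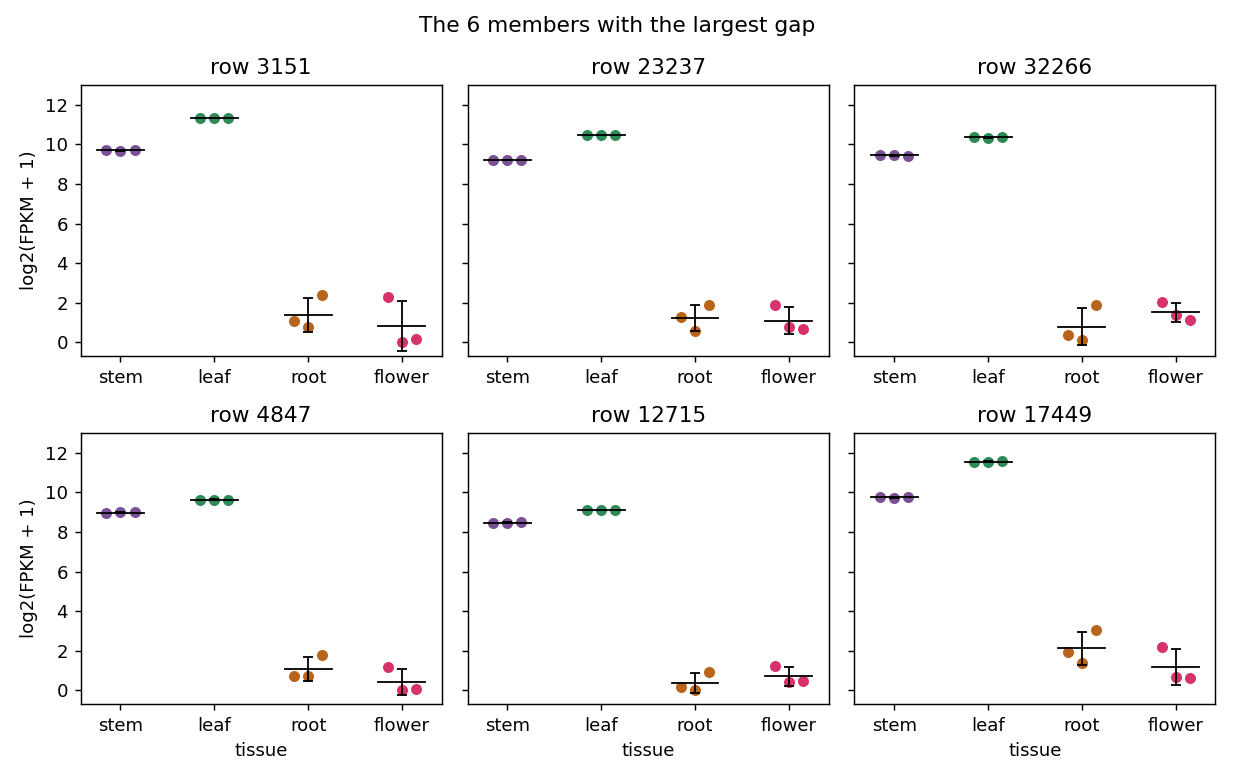
The 6 members with the largest gap, each point a library, with the mean and SD over 3 libraries as a bar and whiskers, on the log2(FPKM + 1) scale by tissue. Stem and leaf points lie far above those of root and flower, and the highest root and flower points are root replicate 3 and flower replicate 1.

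Root replicate 3 ran high over most of the members strongly expressed in leaf, and flower replicate 1 over those nearly silent in flower. Among the 112 members with at least 100 FPKM in leaf, root replicate 3 exceeded the mean of the other root libraries in 85, replicate 1 in 30 and replicate 2 in 31. Flower replicate 1 exceeded the mean of the other flower libraries in 65 of the 112, replicate 2 in 42 and replicate 3 in 56, so over these members no flower library stood out as clearly. Members at trace level were then taken as those whose median over the 3 libraries of the tissue was under 1 FPKM. This choice treats the libraries alike and gives each the same members. No like count was made over tested genes at similar levels, so these counts cannot be called particular to the members. Among tested genes with reads in the tissue, root replicate 3 was the highest root library in 36.7%. Flower replicate 1 was the highest flower library in 46.8%.

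In root 36 of the 112 members were at trace level, and replicate 3 exceeded the mean of the others in 29 of them, replicate 1 in 5 and replicate 2 in 6. Relative to the leaf level of the same member, the median excess was 0.152% in root replicate 3 (quartiles 0.0381% and 0.193%), -0.0685% in replicate 1 and -0.0754% in replicate 2. In sum these members held 12.7, 11.7 and 45.6 FPKM in root replicates 1, 2 and 3.

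In flower 28 of the 112 members were at trace level, and replicate 1 exceeded the mean of the others in 26 of them, replicate 2 in 0 and replicate 3 in 7. The median excess was 0.129% of the leaf level in flower replicate 1 (quartiles 0.0876% and 0.199%), -0.0920% in replicate 2 and -0.0535% in replicate 3. In sum these members held 34.7, 7.87 and 12.3 FPKM in flower replicates 1, 2 and 3.

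Over all members with root reads, replicate 3 was the highest root library in 138 (51.5%), compared with 36.7% of tested genes. Over all members with flower reads, replicate 1 was the highest flower library in 112 (42.1%), compared with 46.8% of tested genes, so flower replicate 1 was not the highest more often over the whole set than over tested genes. What gave these libraries their traces was not tested. Without root replicate 3 the rule was still met by 278 of the 281 members, and without flower replicate 1 by 274.

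**Figure D3:**
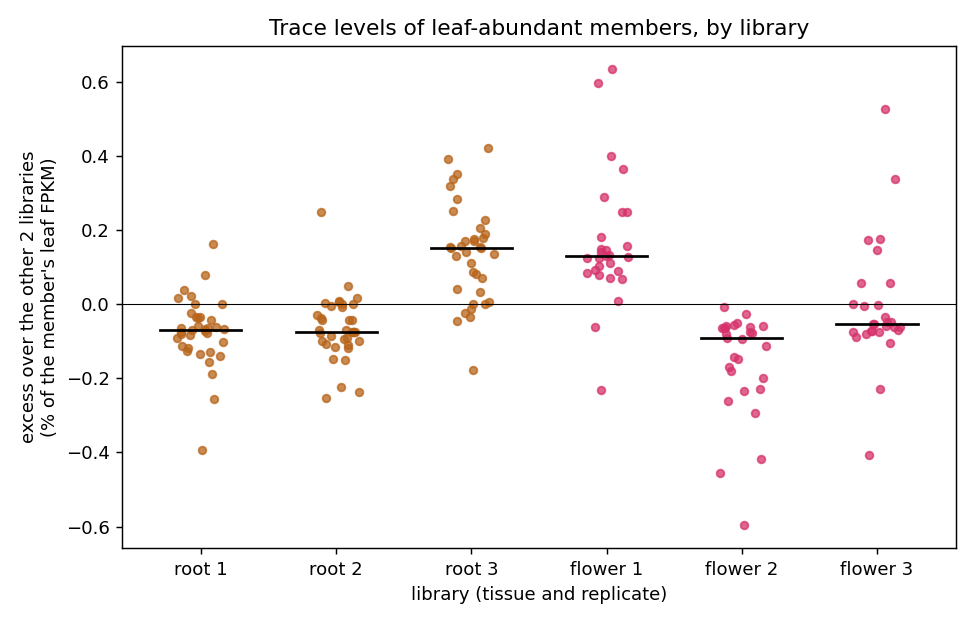
For each root and flower library, its FPKM minus the mean of the other 2 libraries of that tissue, as a percent of the member's leaf FPKM; each point is a member with at least 100 FPKM in leaf and a median under 1 FPKM in the tissue, the same members for its 3 libraries, and bars are medians. Root replicate 3 and flower replicate 1 lie mostly above 0, with medians of 0.152% and 0.129%.

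Stem and leaf did not carry the members at equal levels, and leaf was usually the higher of the pair. The stem mean was above the leaf mean in 48 members and below it in 233. With limma fitted to all tested genes, 12 members were called higher in stem and 146 higher in leaf, where a call needs a difference of 1 or more with an adjusted p below 0.05, and all 123 others differed by less than 1. Together that is 56.2% of the members, beside 25.2% of all tested genes called in either direction, 13.9% higher in stem and 11.4% higher in leaf. The median difference of stem minus leaf was -1.03 over the members and 0.13 over all tested genes. The rule caps this difference at under 2 without regard to sign, so the share of members called is partly set by the choice of members, and the 113 genes that the cap left out leaned to leaf as well. With median-ratio scaling 9 members were called higher in stem and 163 higher in leaf, beside 23.8% of all tested genes.

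The members that leaned most to stem ranged from high to low abundance. Row 21372 (1281 bases) was at 243, 247 and 241 FPKM in stem and 68.0, 66.5 and 67.3 in leaf, so stem minus leaf came to 1.84 in log2(FPKM + 1) units (SE 0.099, adjusted p = 1.18e-08 by limma). It was at 1.54, 1.43 and 1.95 FPKM in root and 2.67, 3.51 and 3.84 in flower. Stem exceeded leaf in every library, and both were far above root and flower.

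Row 16554 (1357 bases) was at 59.8, 64.8 and 61.2 FPKM in stem and 16.5, 17.4 and 19.1 in leaf, with 3.66, 3.91 and 2.93 in root and 1.53, 0.803 and 0.556 in flower. Row 23832 (1634 bases) was at 20.5, 19.4 and 20.7 FPKM in stem and 5.70, 5.94 and 5.57 in leaf, and under 1 FPKM in every root and flower library. Row 33161 (666 bases) was at 88.5, 78.9 and 92.3 FPKM in stem and 31.5, 23.9 and 27.2 in leaf. These 3 genes differed by 1.76 (SE 0.154), 1.65 (SE 0.135) and 1.62 (SE 0.178) for stem minus leaf. Row 16554 lies near the edge of the set, with a gap of 2.06 that was 1.96 without root replicate 3.

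The members that leaned most to leaf lay against the upper limit that the rule sets. Row 3956 (1268 bases) was at 94.6, 93.2 and 96.0 FPKM in stem and 378, 386 and 377 in leaf, so stem minus leaf came to -1.995 (SE 0.085, adjusted p = 1.63e-09 by limma). It kept 19.0, 22.7 and 20.6 FPKM in root and 5.62, 4.59 and 4.16 in flower. Leaf was the highest tissue, and the 4 tissues did not overlap in any library.

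Row 3242 (954 bases) was at 36.1, 38.0 and 38.0 FPKM in stem and 150.5, 153 and 149 in leaf, with at most 0.575 FPKM in root and 0.241 in flower. Row 20257 (853 bases) was at 98.1, 99.7 and 93.9 FPKM in stem and 379, 400 and 382 in leaf, with 27.2, 18.9 and 23.9 in root and 9.59, 10.7 and 12.1 in flower. Row 17748 (1277 bases) was at 18.9, 14.8 and 17.8 FPKM in stem and 72.2, 66.0 and 69.5 in leaf. Their differences for stem minus leaf were -1.98 (SE 0.142), -1.98 (SE 0.111) and -1.95 (SE 0.151).

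The 4 members with the highest mean FPKM over the stem and leaf libraries together were higher in leaf as well. Row 18689 (1114 bases) was at 2193, 2143 and 2194 FPKM in stem and 4074, 4027 and 4052 in leaf, with 3.26, 1.68 and 9.38 in root and 64.6, 85.9 and 82.2 in flower. Row 23559 (338 bases) was at 993, 906 and 924 FPKM in stem and 2967, 2896 and 2972 in leaf, with 12.9, 14.8 and 22.2 in root and 13.1, 4.03 and 6.89 in flower. Row 12035 and row 28037, described with flower below, complete the 4. For row 18689 the stem minus leaf difference was -0.90 (SE 0.353) and missed the size threshold, although its stem and leaf libraries did not overlap. The SE comes from a spread pooled over all 4 tissues, and from stem and leaf libraries alone it was 0.016.

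**Figure D4:**
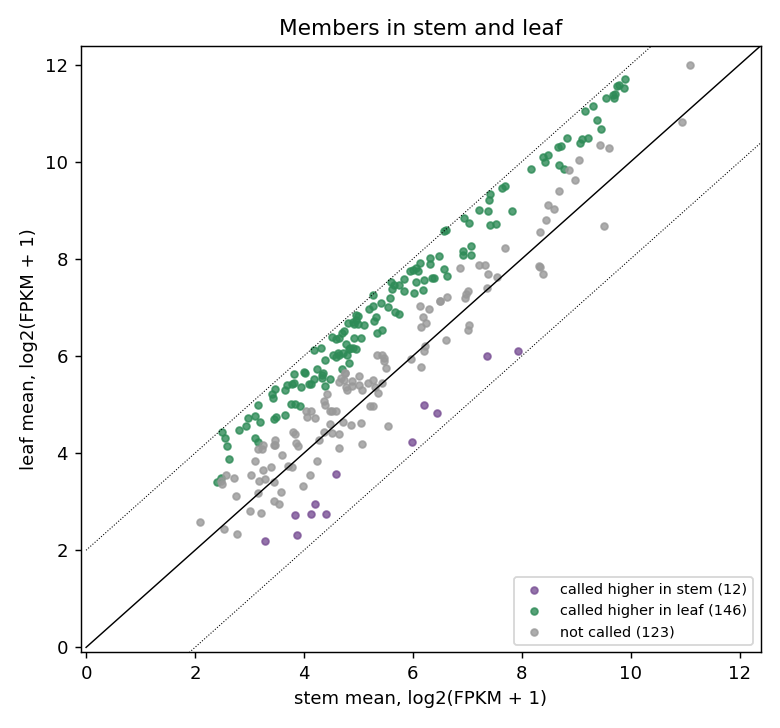
Mean log2(FPKM + 1) of each member in stem (horizontal) and leaf (vertical); the solid line marks equal levels and the dotted lines a difference of 2, the limit set by the rule. The 146 members called higher in leaf lie above the solid line, the 12 called higher in stem below it, and 123 were not called.

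Root and flower, the tissues low by choice, divided the set unevenly. At a mean of 1 FPKM, 99 members were below that level in both root and flower, 44 were below it in flower but not root, 38 in root but not flower, and 100 reached it in both. Members that reached it in both had medians of 119.9 FPKM in stem and 223 FPKM in leaf, against 12.99 and 20.7 FPKM for members below it in both, an order that the rule builds in, since it asks for a higher shoot level where root or flower is higher. No read was found in any root library for 13 members and in any flower library for 15, with 4 listed at 0 in both tissues.

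The difference between root and flower was tested gene by gene. The rule did not use its sign but kept both levels low, which limits its size. The 99 members with means below 1 FPKM in both tissues could not reach a difference of 1 on this scale. By limma 48 members were called higher in root and 51 higher in flower, and the other 182 differed by less than 1. That is 35.2% of the members, beside 57.1% of all tested genes, of which 39.8% were higher in root and 17.3% higher in flower. The median of root minus flower was 0.085 over the members and 0.61 over all tested genes. The rule picks genes low in both tissues, and adding 1 FPKM shrinks differences between low values. The share of members called is therefore partly set by the choice of members. With 0.1 added in place of 1, 164 members (58.4%) and 63.2% of tested genes were called, and with voom on recovered reads 173 members (61.6%) and 64.0% of tested genes. The share of members called was nearer to the background with both of these settings, and the cause was not tested. The balance depended on the scaling. Of the calls among members 48.5% were higher in root, and 29.0% with median-ratio scaling, where 29 were higher in root and 71 in flower, beside 54.1% of tested genes called. Over all tested genes the share higher in root was 69.7%, and 51.4% with that scaling, which brought the median of all genes from 0.61 to 0.013.

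In the 4 members with the strongest root level over flower, every root library was above every flower library. Row 7177 (744 bases) was at 23.7, 23.1 and 23.8 FPKM in root and 0.751, 0.275 and 0.0441 in flower, so root minus flower came to 4.21 in log2(FPKM + 1) units (SE 0.140, adjusted p = 3.83e-11 by limma). It was at 160.1, 168 and 168 FPKM in stem and 206, 215 and 192 in leaf. Shoot, root and flower therefore formed 3 separate levels, and no library of one reached another.

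Row 13541 (836 bases) was at 33.3, 33.5 and 37.1 FPKM in root and 2.40, 2.65 and 1.92 in flower, with means of 206 ± 7.53 in stem and 298 ± 6.57 in leaf (SD, n = 3). Row 25648 (666 bases) was at 18.9, 20.5 and 23.1 FPKM in root and 1.23, 1.48 and 2.41 in flower, and unlike most members it was higher in stem (127 ± 1.77 FPKM) than in leaf (91.9 ± 3.15 FPKM; SD, n = 3). Row 11143, recovered at 78 bases, was at 30.4, 42.6 and 22.0 FPKM in root and 0.843, 4.37 and 2.94 in flower. The root libraries of row 11143 spread widely, on 203 root reads in all. Root minus flower was 3.43 for row 13541 (SE 0.076), 3.03 for row 25648 (SE 0.128) and 3.22 for row 11143 (SE 0.323).

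Members with the strongest flower level over root included some of the most abundant genes of the set. Row 12035 (1615 bases) was at 0.534, 0.260 and 5.09 FPKM in root and 148, 177.5 and 177 in flower, a difference of -6.21 (SE 0.433, limma adjusted p = 4.15e-08). It was at 939, 956 and 952 FPKM in stem and 3324, 3288 and 3316 in leaf. Flower held a clear intermediate level, root a trace, and the root mean of 1.96 FPKM was 0.397 without replicate 3. With median-ratio scaling its gap was 1.81, under the limit of 2.

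Row 28037 (849 bases) was at 1.61, 2.34 and 5.49 FPKM in root and 52.3, 77.9 and 76.0 in flower, with 892, 867 and 891 in stem and 3066, 3008 and 3070.0 in leaf. Row 13878 (1371 bases) was at 0.288, 0.223 and 0.9997 FPKM in root and 25.9, 53.0 and 47.8 in flower, with means of 184 ± 6.41 in stem and 419 ± 1.36 in leaf (SD, n = 3). Row 30209 (246 bases) had no read in any root library and stood at 17.9, 14.5 and 17.1 FPKM in flower, with 91.2, 81.7 and 97.2 in stem and 146, 135 and 139 in leaf. In rows 28037 and 13878 flower replicate 1 was the lowest flower library, the reverse of its place in the members nearly silent in flower. Root minus flower was -4.16 for row 28037 (SE 0.261), -4.82 for row 13878 (SE 0.235) and -4.12 for row 30209 (SE 0.083). Without flower replicate 1 the gap of row 13878 was 1.85.

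Row 3126 (573 bases), with 6.90, 6.93 and 11.8 FPKM in root and 142, 130.5 and 137 in flower, had one of the largest absolute excesses in flower replicate 1. It stood at 668 ± 9.56 FPKM in stem and 1845 ± 14.4 FPKM in leaf (SD, n = 3). Its gap of 2.28 was 1.59 with median-ratio scaling.

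**Figure D5:**
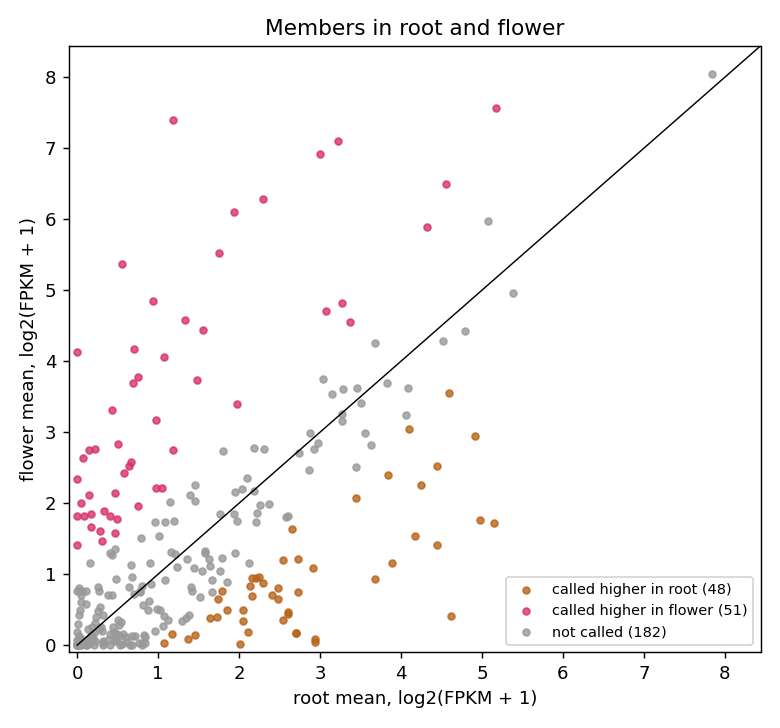
Mean log2(FPKM + 1) of each member in root (horizontal) and flower (vertical), with the line of equal levels. The 48 members called higher in root lie below the line, the 51 called higher in flower above it, and 182 were not called; most members crowd near the origin.

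Members were often neighbours in the table. A row next to another member was found for 32 of the 281 members (11.4%), compared with 367 of the 20488 tested genes outside the set (1.79%). There were 14 runs of 2 or more neighbouring members. The order of the table is not explained in the sources used here, so whether neighbouring rows are neighbours in the genome is not known. The handling of reads shared by gene copies is likewise unknown, and levels of any such copies are uncertain.

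The longest run covered rows 14515 to 14518, and its 4 genes had different lengths and very different levels. Row 14515 (2345 bases) averaged 125 ± 2.08 FPKM across stem libraries, 155 ± 1.66 in leaf, 0.959 ± 0.0231 in root and 3.66 ± 0.218 in flower (SD, n = 3). Row 14516 (2235 bases) averaged 97.9 ± 2.52 FPKM across stem libraries, 147 ± 3.73 in leaf, 0.266 ± 0.288 in root and 0.345 ± 0.173 in flower. Row 14517 (816 bases) averaged 226 ± 11.5 FPKM across stem libraries, 509 ± 6.07 in leaf, 0.430 ± 0.479 in root and 3.45 ± 0.383 in flower. Row 14518 (945 bases) was the highest, at 634 ± 6.09 FPKM across stem libraries, 2261 ± 24.1 in leaf, 1.65 ± 2.23 in root and 2.51 ± 1.51 in flower. Leaf exceeded stem in all 4, by 0.31 on the log2(FPKM + 1) scale in row 14515 and 1.83 in row 14518. Root replicate 3 was far above the other root libraries in rows 14516, 14517 and 14518, and without it the root mean was 0.162 FPKM for row 14517 and 0.366 FPKM for row 14518.

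A second run followed a few rows later, at rows 14530 to 14532. Row 14530 (864 bases) and row 14531 (333 bases) resembled each other, with 12.8 ± 0.939 and 15.2 ± 1.29 FPKM in stem, 42.0 ± 2.06 and 49.2 ± 3.35 in leaf, 0.527 ± 0.161 and 0.656 ± 0.333 in root, and 0.0892 ± 0.122 and 0.102 ± 0.177 in flower (SD, n = 3). Their stem minus leaf differences were both -1.64 (SE 0.109 and 0.154). Row 14532 (153 bases) kept more elsewhere, with 72.0 ± 3.89 FPKM in stem, 112 ± 8.96 in leaf, 8.89 ± 2.61 in root and 8.32 ± 3.47 in flower.

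The run at rows 192 to 194 was almost silent outside the shoot. Row 192 (402 bases) was at 72.0, 78.3 and 71.7 FPKM in stem and 77.5, 68.6 and 72.7 in leaf, and its stem and leaf libraries overlapped, with a difference of 0.021 (SE 0.085). It had 3 reads in the root libraries together and 1 in those of flower. Row 193 (1434 bases) averaged 5.603 ± 0.646 FPKM in stem and 10.2 ± 0.602 in leaf (SD, n = 3), with 10 root reads and none from flower. Row 194 (408 bases) averaged 7.57 ± 0.747 FPKM in stem and 19.0 ± 1.04 in leaf, with 1 root read and none from flower.

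Replicates of stem and leaf were tight for the members as a whole, with a median SD of 0.060 in stem and 0.043 in leaf on the log2(FPKM + 1) scale. The members that varied most there were short or weakly expressed. Row 12523, recovered at 79 bases, was at 11.2, 9.19 and 17.0 FPKM in stem and 8.19, 12.1 and 18.9 in leaf. Row 14477 (555 bases) gave 6.73, 4.98 and 2.71 FPKM in stem and 12.5, 8.92 and 9.69 in leaf. Row 7869 (222 bases) gave 3.33, 4.67 and 2.21 FPKM in stem and 6.84, 3.003 and 5.88 in leaf, and had no read in any root or flower library. Stem and leaf overlapped in rows 12523 and 7869, and no order of the pair can be given for them.

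In length, given without a test, the members were shorter than other genes at the upper end. Their median was 1214 bases (quartiles 780.0 and 1595), compared with 1350.0 bases (quartiles 745 and 2059) over all tested genes. The longest member had 5783 bases. These lengths are the smallest that fit the values, and can come out too short where a gene has few reads.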

How the data were processed

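The authors deposited 1 table of FPKM values, with 33242 rows and a column for each of 12 libraries, matched to the labels by title. Tools listed in the submitters' processing notes are HISAT2, HTSeq, fastp and R 3.2.0, with no role attached and with build, annotation and strandedness not given in the sources used here. RNA was extracted with TRIzol and libraries were made with a VAHTS kit, per the labels' protocols. Whole reads were recovered for 100.0% of the 26625 rows above 0, taking the smallest length that gives whole reads within 0.01 in every library; the total limits the precision of low values. For 20769 genes log2(FPKM + 1) was modelled with limma 3.58.1 (R 4.3.3) across all 12 libraries, with a mean per tissue, a mean-variance trend and 8 residual degrees of freedom, and p-values were adjusted by Benjamini-Hochberg over all tested genes for each pair of tissues. The fit was run on simulated data with a single spread per gene shared by all tissues. That setting cannot show how spreads that differ between tissues affect the calls. Members and lists were chosen with earlier results of these data known. Named genes were those with the largest gaps (6), the highest stem and leaf levels (4), the strongest called stem and leaf differences and root and flower differences without overlap (4 each way), the nearest to the threshold (2 each side), the largest spread in stem or leaf (3), the largest excess in root replicate 3 and flower replicate 1 (3 each), and the 3 longest runs of neighbouring rows. Examining library excess for each root and flower library was chosen after values were seen. Alternatives were the pseudocount, scaling, filter, trend, voom on recovered reads, the libraries in the fit, the rule's settings and leaving out each library.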

Additional observations from a re-analysis of the deposited data

How the results depend on the processing

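The rule found 281 genes, 441 with 0.1 added in place of 1, and 137 at a gap of 3, all 137 of them members by construction. Of the 281 members, 220 met the rule again with median-ratio scaling, 281 with column-sum scaling, 277 with 0.1 added and 266 with tissue medians. With the lowest stem or leaf library set against the highest root or flower library, 231 met it. Limma calls of at least 2 in all 4 pairs also gave 281, a count that the rule all but fixes. Leaving out each library in turn gave 275 to 286 genes, of which 272 to 281 were members. Held-out replicate numbers gave 249 to 254 genes at a gap of 2. Calls of stem against leaf stayed within 1.5 times under the alternatives run, with 10 to 13 higher in stem and 144 to 147 higher in leaf when a library was left out. Calls of root against flower moved more. The 48 higher in root became 90 with 0.1 added, 96 with voom and 29 with median-ratio scaling. The 51 higher in flower became 77 with voom, and leaving out a library gave 46 to 56 and 49 to 54. The cause was not tested. Deviations of same-numbered libraries were nearly uncorrelated between tissues (-0.036 to 0.025), which cannot tell whether those libraries came from the same plants. With a replicate block the counts were 12 higher in stem, 146 in leaf, 48 in root and 51 in flower. In this balanced layout the block leaves every difference unchanged and could alter the counts only through the p-values. The equal counts therefore say little of pairing. The 16 tested differences of named members kept direction and call in all 320 refits. In many of these refits the difference itself could not change, as with the filter, the trend, the block or left-out libraries of other tissues. The differences were picked as the strongest, so this says little of other members. The gaps of named members moved by more than their replicate spread in 35 of 416 recomputations. All 35 came from median-ratio scaling, column-sum scaling or 0.1 added, and none from tissue medians or a left-out library. Many left-out libraries could not move a gap, being from a tissue that did not set it. Depth limits the root and flower values, many of which rest on a few reads.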
